A study of Rattus norvegicus with 18 samples.

Results

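Interferon-stimulated genes are genes that cells switch on when they sense interferon, and 36 of them were followed here across kidney RNA of rats with adenine-induced chronic kidney disease. They were chosen by name, as rows of the deposited gene table whose symbol is one of the listed genes. Of the 36, 34 had a row among the 32116 genes of the table, and Ifit1 and Oas1b had none under those names. The 34 rows included 31 that were expressed highly enough to test (at least 1 FPKM in at least 6 of the 18 libraries), out of 13851 genes tested in all. FPKM is the number of sequenced fragments per kilobase of gene, scaled for library size.

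Kidneys of 3 groups were sequenced, with 6 libraries each. In SZ rats, a daily adenine dose of 100 mg per kg was combined with a daily dose of SZ-A of 300 mg per kg. In CKD rats that adenine dose was given without SZ-A, and NC rats were left untreated. What SZ-A is chemically, and the strain, age and sex of the rats and the length of dosing, are not stated in the labels used. Adenine fed to rats forms dihydroxyadenine crystals in the tubules, so the model is one of chemical tubular injury with inflammation. Whether the 6 libraries of a group stand for 6 animals is not stated in the labels, so a p-value here speaks of the spread among libraries, part of which may be technical.

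Type I and type III interferons act through the kinases Jak1 and Tyk2 on a transcription factor complex that holds Stat2 and Irf9 and binds the interferon-stimulated response element. Interferon gamma acts through Jak1 and Jak2, and its target genes, Irf1 among them, often carry the gamma-activated site. The products of these target genes sense foreign nucleic acid, cut or modify viral RNA, attach the ubiquitin-like protein Isg15 to other proteins, or restrain the pathway itself. In bulk kidney RNA, fewer cells of a type and less RNA per cell cannot be told apart, and the same holds for more cells and more RNA per cell.

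Recovered library totals ran from 15354358 to 18532375 reads and did not separate the groups (exact 2-sided permutation p between 0.76 and 0.93 over the 3 comparisons, with an adjusted p of 0.94 for each). Reads of mitochondrial genes made up 11.1% to 18.4% of the total in SZ, 5.86% to 16.0% in CKD and 14.7% to 24.1% in NC, with medians of 13.9%, 9.62% and 19.3%, so this share moved with the groups. Reads of rRNA genes stood at 1741 ppm of the total in CKD 5 and 809 ppm in CKD 6, and at 65.8 to 248 ppm in the other libraries. The part of either measure in the members' values was not tested. The 12 tubule and podocyte markers were detected in every library, as the kidney label requires. In 3 libraries, CKD 5, SZ 3 and CKD 2, values fell with gene length, by 0.31, 0.25 and 0.21 log2 units per doubling of length, and CKD 1 had a slope of -0.10. The counts of called members, and of called genes in the 4 lists of receptors, sensors, restraining genes and other induced genes, were therefore repeated without CKD 2, CKD 5 and SZ 3. The library size behind the deposited FPKM, divided by the recovered total, ran from 0.86 to 0.95 in NC and from 1.02 to 1.26 in CKD. In SZ this ratio ran from 0.97 to 1.12, so every NC library lay below every SZ and CKD library. Across all tested genes, 24.4% were higher and 26.0% lower in CKD than in NC under the deposited scaling. Rescaling to a fixed sum (TPM) shifted the median of all genes in this comparison to 0.34 on the log2 scale and the split to 47.6% higher and 9.25% lower, and plain totals gave a median of 0.25, so the members are read beside the median of all genes.

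The sequences before the gene starts show which members carry the motifs that interferon-activated factors bind. Promoter windows of RefSeq's build GRCr8, from 250 bases before to 50 bases after the start, existed for 29 of the 36 genes. The core of the interferon-stimulated response element, searched on both strands as GAAA, NN and GAAA in 1 run with N for any base, lay in 18 of the 29 windows (62.1%), against 3.92% of all 33469 windows. The core of the gamma-activated site, searched as TTCNNNGAA, whose letters read the same way on both strands, lay in 8 of the 29 (27.6%), against 8.87% of all windows, and 4 of the 29 held both. The 2 motifs can overlap where they share bases. A match describes these letters in this window and is neither a bound site nor a cause.

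Shown first are the 250 bases before the start of 4 genes with the response element core and a large difference between CKD and NC, and then of 2 transcription factor genes whose windows held the gamma-activated site core without it. All are written 5′ to 3′ on the strand of the gene, and capitals mark either core on either strand. In GRCr8 they lie at chr2:234005477-234005726, plus strand, for Gbp2, at chr6:128355062-128355311, plus strand, for Ifi27, and at chr11:78407884-78408133, plus strand, for Parp14. They lie at chr2:243303841-243304090, minus strand, for Ifi44, at chr10:38417685-38417934, plus strand, for Irf1, and at chr19:65699034-65699283, plus strand, for Irf8.
Gbp2: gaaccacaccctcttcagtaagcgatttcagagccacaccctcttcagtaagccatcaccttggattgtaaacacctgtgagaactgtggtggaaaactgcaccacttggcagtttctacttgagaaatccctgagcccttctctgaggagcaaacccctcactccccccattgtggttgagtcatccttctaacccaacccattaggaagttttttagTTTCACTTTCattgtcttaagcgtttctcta
Ifi27: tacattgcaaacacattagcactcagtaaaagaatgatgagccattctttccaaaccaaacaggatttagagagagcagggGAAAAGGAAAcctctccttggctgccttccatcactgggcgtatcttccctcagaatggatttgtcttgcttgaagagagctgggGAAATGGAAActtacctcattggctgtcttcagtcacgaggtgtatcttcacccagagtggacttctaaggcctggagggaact
Parp14: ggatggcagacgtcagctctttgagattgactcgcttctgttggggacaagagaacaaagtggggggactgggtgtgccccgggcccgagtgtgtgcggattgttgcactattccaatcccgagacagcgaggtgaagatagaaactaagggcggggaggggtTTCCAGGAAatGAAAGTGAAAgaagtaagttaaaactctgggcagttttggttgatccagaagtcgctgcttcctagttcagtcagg
Ifi44: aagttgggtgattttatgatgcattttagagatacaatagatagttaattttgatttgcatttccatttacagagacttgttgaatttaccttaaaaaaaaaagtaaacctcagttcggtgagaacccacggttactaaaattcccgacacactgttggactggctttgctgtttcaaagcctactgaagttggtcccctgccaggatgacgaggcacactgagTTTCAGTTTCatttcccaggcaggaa
Irf1: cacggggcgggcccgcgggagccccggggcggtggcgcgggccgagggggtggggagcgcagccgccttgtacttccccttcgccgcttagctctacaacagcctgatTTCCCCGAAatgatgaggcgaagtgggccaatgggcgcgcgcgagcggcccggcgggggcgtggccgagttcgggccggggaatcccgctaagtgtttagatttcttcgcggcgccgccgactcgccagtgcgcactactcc
Irf8: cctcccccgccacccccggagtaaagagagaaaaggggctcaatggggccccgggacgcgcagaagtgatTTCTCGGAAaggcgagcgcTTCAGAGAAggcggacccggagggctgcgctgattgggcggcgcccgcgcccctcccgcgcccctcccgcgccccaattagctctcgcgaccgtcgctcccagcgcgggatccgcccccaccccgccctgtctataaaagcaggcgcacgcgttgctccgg

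In Gbp2 the response element core began 31 bases before the start, and in Ifi44 the one shown began 26 bases before it. Ifi27 held a pair of them, which began 169 and 84 bases before the start. Parp14 had a gamma-activated site core 87 bases before the start and the response element core 76 bases before it. The gamma-activated site core of Irf1 began 142 bases before the start, and those of Irf8 began 180 and 161 bases before it. For CKD against NC, the 16 tested members with the response element core had a median log2 fold change of 0.77 (0.28 to 1.96). The 10 tested members whose window lacked the response element core had a median of 0.82 (0.33 to 2.10). Of these, 12 of 16 and 9 of 10 were higher in CKD than in NC, against 24.4% of all tested genes. The difference between members with and without the core was not tested.

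CKD against NC asks what adenine did to these genes. Of the 31 tested members, 23 were higher in CKD kidneys and 0 were lower at a limma adjusted p under 0.05, against 24.4% of all tested genes called higher, 26.0% called lower and 50.3% called in either direction. All 31 log2 fold changes were above 0, with a median of 0.81, against a median of -0.04 over all tested genes. They ran from 0.27 for Ifit2 to 2.10 for Irf1. In 8 members every CKD library was above every NC library (Irf1, Irf8, Parp9, Parp14, Gbp2, Gbp5, Ifi35 and Trim21), against 14.2% of all tested genes. Without CKD 2, CKD 5 and SZ 3, 22 members were higher, and under TPM, whose median gene was shifted, 29 were.

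SZ against CKD asks what SZ-A did on top of adenine. Irf8 was lower in SZ kidneys, 0 members were higher, and 30 of 31 did not pass the test, against 6.82% of all tested genes called lower, 4.16% called higher and 11.0% called in either direction. Of the 31 log2 fold changes, 22 were below 0 and 9 above, with a median of -0.06 against 0.01 over all tested genes. The sign of that median depended on single libraries, since it was 0.02 without CKD 3 and 0.02 without CKD 5. An unadjusted p was under 0.05 for 4 members (Irf8, Gbp2, Ifi27 and Irf1), each with a value below 0. The 95% interval of the difference included 0 for 27 members and lay within 1 log2 unit of 0 on both sides for 27, so larger differences in SZ lay outside the interval for most of these genes and smaller ones did not. Without CKD 1 the count of members lower in SZ was 4, without SZ 3 it was 2, and without CKD 2, CKD 5 and SZ 3 it was 1.

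In SZ against NC, 15 of the 31 tested members were higher in SZ kidneys and 0 were lower, against 12.5% of all tested genes called higher, 8.61% called lower and 21.1% called in either direction. The median log2 fold change was 0.64, against -0.04 over all tested genes, and all 31 values were above 0. In 10 members every SZ library was above every NC library, against 8.86% of all tested genes. Without CKD 2, CKD 5 and SZ 3, 16 members were higher in SZ than in NC. CKD against NC and SZ against NC share the 6 NC libraries, and each of these comparisons shares its other group with SZ against CKD. Across the 3 tests, 12 members were called higher in both adenine-treated groups over NC without a call between SZ and CKD (Dtx3l, Gbp2, Gbp5, Ifih1, Irf1, Mx1, Oasl, Parp14, Parp9, Samhd1, Stat2 and Xaf1). Another 10 passed for CKD against NC alone, Ifit2 and Rsad2 passed for SZ against NC alone, 6 passed in none (Cmpk2, Irf7, Mx2, Oas1a, Oas2 and Oasl2), and Irf8 passed in all 3. A call in one comparison and not in another does not show that the comparisons differ.

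**Figure D1:**
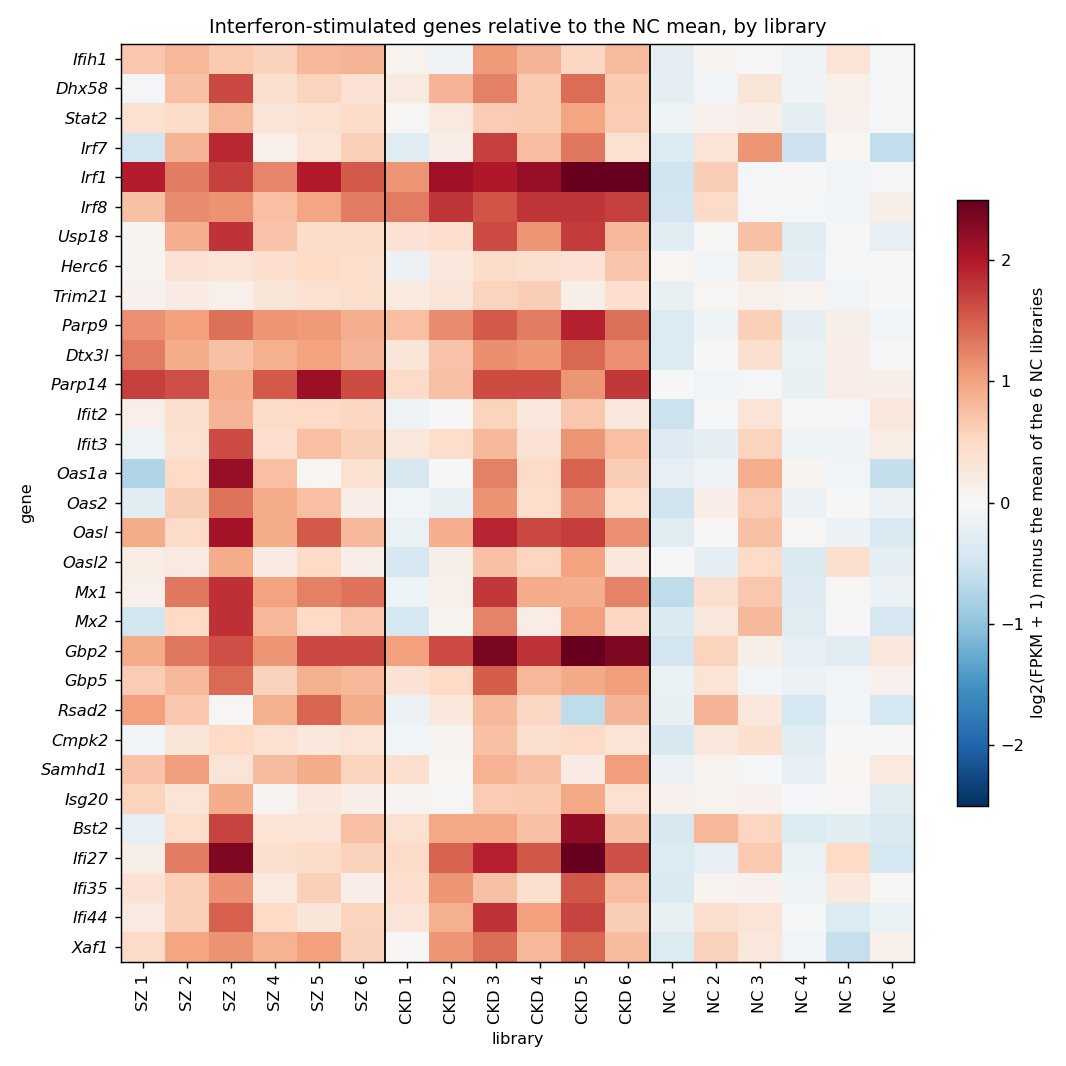
Heat map of the 31 tested genes (rows, by role) in the 18 libraries (columns, SZ then CKD then NC), coloured by log2(FPKM + 1) minus the mean of the 6 NC libraries. Irf1, Irf8, Gbp2, Parp9 and Parp14 are red across the SZ and CKD libraries, while CKD 1 is pale for most genes and SZ 3, CKD 3 and CKD 5 are dark for many.

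**Figure D2:**
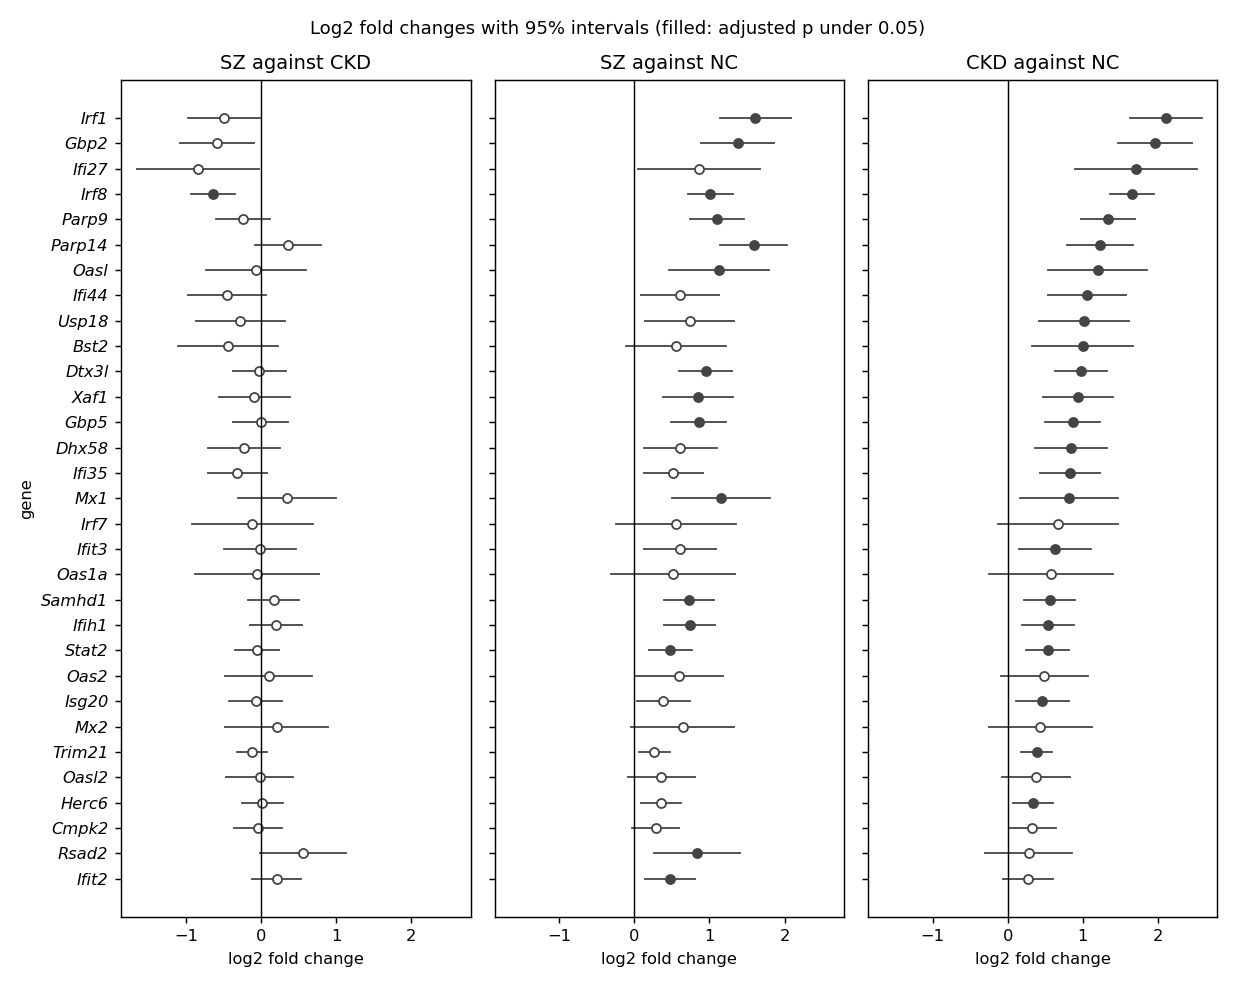
Log2 fold change (points) with its 95% interval (lines) for each of the 31 genes in SZ against CKD, SZ against NC and CKD against NC; filled points have a limma adjusted p under 0.05. In the left panel Irf8 alone is filled, and in the right panel all 31 points lie to the right of 0, with 23 filled.

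Among the sensors of viral RNA, both tested members were higher in CKD than in NC, 1 of 2 was higher in SZ than in NC, and 0 of 2 passed between SZ and CKD. The shares of all tested genes called higher were 24.4% in CKD against NC and 12.5% in SZ against NC. Between SZ and CKD, 11.0% were called in either direction. Ifih1 encodes MDA5, which senses long double-stranded RNA in the cytoplasm. Its level ran from 4.80 to 5.96 FPKM in SZ (median 5.52), from 2.66 to 7.07 FPKM in CKD (median 5.12) and from 2.25 to 3.92 FPKM in NC (median 2.84). All 6 SZ libraries were above all NC libraries, while CKD 1 and CKD 2 fell within the NC range. Its log2 fold change was 0.54 ± 0.16 (SE) for CKD against NC (limma adjusted p = 0.011) and 0.74 ± 0.16 for SZ against NC (adjusted p = 0.0036). Dhx58 encodes LGP2, which regulates MDA5 and RIG-I, and averaged 5.25 ± 2.93 FPKM in SZ, 6.05 ± 2.08 in CKD and 2.83 ± 0.52 in NC (SD, n = 6 each). It was higher in CKD than in NC by 0.84 ± 0.23 on the log2 scale (limma adjusted p = 0.0053).

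In CKD against NC, the members with the smallest adjusted p were the transcription factor genes Irf8 and Irf1. Irf1 (chr10:37916670-37924166, plus strand, mRatBN7.2), which is induced by interferon gamma and activates antigen presentation and antiviral genes, ran from 12.5 to 21.9 FPKM in SZ (median 16.9), from 11.5 to 35.6 FPKM in CKD (median 24.9) and from 3.10 to 7.89 FPKM in NC (median 4.72). Every SZ and every CKD library was above every NC library, and the SZ range lay within the CKD range. It was higher by 2.10 ± 0.23 on the log2 scale in CKD than in NC (limma adjusted p = 7.9e-07) and by 1.61 ± 0.23 in SZ than in NC (adjusted p = 7.9e-05). For SZ against CKD the difference was -0.49 ± 0.23 (adjusted p = 0.16, 95% interval -0.97 to -0.01), and without CKD 1 it was -0.69 with an adjusted p of 0.015.

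Irf8 (chr19:48790588-48811829, plus strand, mRatBN7.2) directs the development of monocytes, macrophages and dendritic cells and also responds to interferon gamma. Its level ran from 4.75 to 7.29 FPKM in SZ (median 6.17), from 7.42 to 10.9 FPKM in CKD (median 10.6) and from 1.52 to 3.77 FPKM in NC (median 2.33). The 3 ranges did not overlap, with SZ between CKD and NC, and SZ and CKD ranges were apart in this direction for 1.63% of all tested genes. It was lower in SZ than in CKD by -0.64 ± 0.14 on the log2 scale (limma adjusted p = 0.011, 95% interval -0.94 to -0.35), and higher by 1.66 ± 0.14 in CKD than in NC (adjusted p = 6.4e-08) and by 1.01 ± 0.14 in SZ than in NC (adjusted p = 6.7e-05). The call of Irf8 as lower in SZ than in CKD held in each of the 31 other settings tried, with differences between -0.78 and -0.59.

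Macrophage markers moved in the same direction as Irf8. Of 12 such markers (among them Cd68, Csf1r, Cd163 and the C1q genes), 10 were lower in SZ than in CKD with a median log2 fold change of -1.17, 12 were higher in CKD than in NC with a median of 2.73, and 11 were higher in SZ than in NC with a median of 1.57. Their summed level ran from 445 to 973 FPKM in SZ, from 1068 to 2243 FPKM in CKD and from 117 to 220 FPKM in NC, and 0 of the 12 were at 0 in any library. The markers' part in the values of Irf8, or of any other member, was not tested. Of the 8 tested T and NK cell markers, 2 were lower in SZ than in CKD, 6 higher in CKD than in NC and 5 higher in SZ than in NC, and their summed level ran from 12.9 to 24.9 FPKM in SZ, from 15.4 to 40.7 FPKM in CKD and from 5.07 to 11.3 FPKM in NC. Of 4 tested dendritic cell markers, 1 was lower in SZ than in CKD, 3 were higher in CKD than in NC and 2 higher in SZ than in NC. All 3 tested B and plasma cell markers and all 3 tested neutrophil markers were higher in CKD than in NC, while 3 of 5 endothelial and 11 of 12 tubule and podocyte markers were lower. Over all tested genes, 24.4% were called higher and 26.0% lower in CKD than in NC. The shares were 12.5% higher in SZ than in NC and 6.82% lower in SZ than in CKD.

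Stat2, which acts together with Irf9, averaged 9.49 ± 1.45 FPKM in SZ, 10.1 ± 2.52 in CKD and 6.52 ± 0.80 in NC (SD, n = 6 each). It was higher by 0.53 ± 0.14 on the log2 scale in CKD than in NC (limma adjusted p = 0.0036) and by 0.48 ± 0.14 in SZ than in NC (adjusted p = 0.019), and every SZ library was above every NC library. Irf7, the factor that amplifies type I interferon production, did not pass in any comparison. Its level ran from 7.53 to 43.0 FPKM in SZ (median 15.5), from 8.58 to 37.7 FPKM in CKD (median 16.9) and from 6.79 to 24.5 FPKM in NC (median 9.86). The 3 ranges overlapped almost fully, and the highest library of each group was SZ 3, CKD 3 and NC 3. For CKD against NC its log2 fold change was 0.67 ± 0.38 (limma adjusted p = 0.15).

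Irf9 could not be followed. It was listed at 0 to 0.14 FPKM, with 0 to 4 reads per library and 21 in all, where a floor of 3 reads corresponds to between 0.072 and 0.108 FPKM. Its span (chr15:29095789-29101236, plus strand, mRatBN7.2) lies inside that of Rnf31 on the same strand. How the authors' counting used strand and treated overlapping genes is not stated in the labels or the table.

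**Figure D3:**
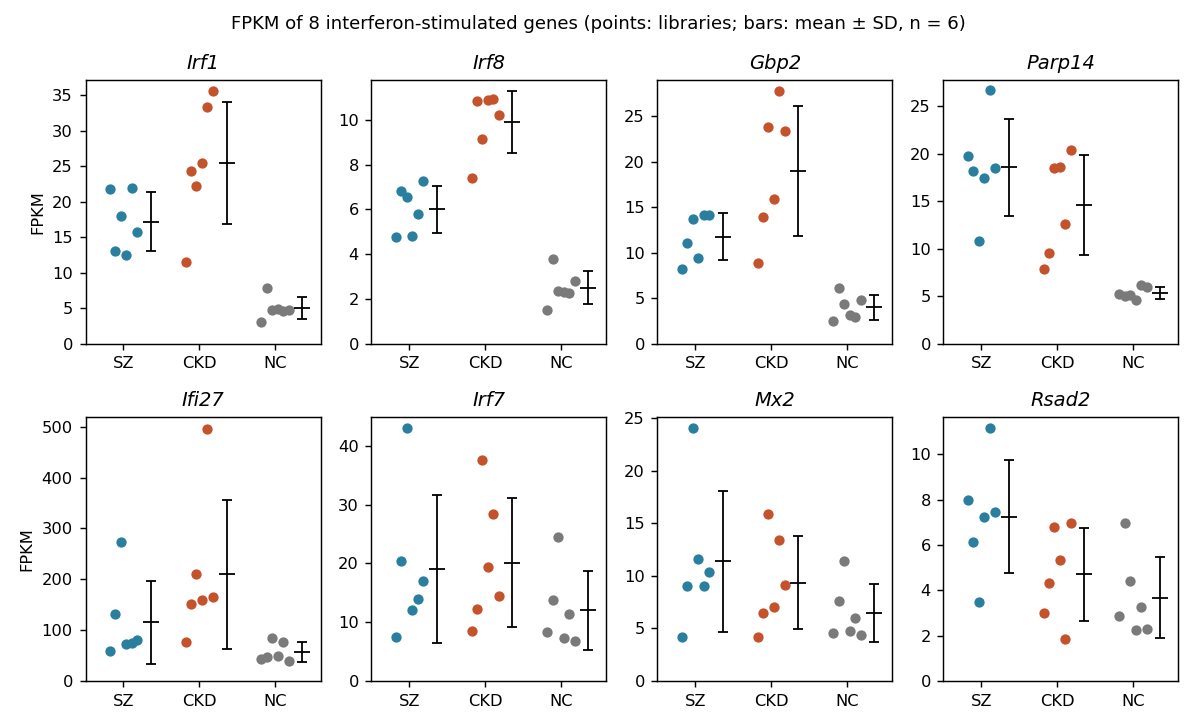
FPKM of 8 genes in each library (points) with the mean ± SD of each group (bars, n = 6), for SZ, CKD and NC from left to right; each panel has its own axis from 0. Irf1, Irf8, Gbp2 and Parp14 have all SZ and CKD points above the NC points, whereas the points of Irf7, Mx2 and Rsad2 overlap between groups.

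Isg15 itself, the ubiquitin-like tag, had 0 reads in all 18 libraries, which allows up to between 0.21 and 0.31 FPKM per library by a floor of 3 reads. Its span (chr5:166784148-166785435, minus strand, mRatBN7.2) lies inside that of Agrn on the same strand, and it is described as listed at 0. Among protein-coding genes, 20.6% of the 1394 whose span overlaps another on the same strand had 0 reads in all libraries, against 19.1% of the 18216 with no overlap. The shares under 1 FPKM in all libraries were 52.7% and 40.7%. These shares were not split by how much of a span overlaps. Isg15 and Irf9 lie wholly inside another gene's span, so the shares do not decide the question for them. The part of overlap in the values of Isg15 and Irf9 was not tested. Of the other members of the Isg15 system and ubiquitin ligases, 3 of 3 were higher in CKD than in NC, 0 of 3 passed for SZ against NC, and 0 of 3 for SZ against CKD. Among all tested genes, 24.4% were higher in CKD than in NC, 21.1% were called for SZ against NC and 11.0% for SZ against CKD. Usp18, which removes Isg15 from proteins and blocks the type I receptor, ran from 1.79 to 8.33 FPKM in SZ (median 2.99), from 2.39 to 7.92 FPKM in CKD (median 4.17) and from 1.18 to 3.43 FPKM in NC (median 1.46). The NC range reached into the CKD range through NC 3, and the log2 fold change was 1.01 ± 0.28 for CKD against NC (limma adjusted p = 0.0064).

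Trim21, an antibody receptor and ubiquitin ligase, varied little within groups. It averaged 6.34 ± 0.69 FPKM in SZ, 7.01 ± 1.03 in CKD and 5.10 ± 0.46 in NC (SD, n = 6 each), and was higher by 0.39 ± 0.10 on the log2 scale in CKD than in NC (limma adjusted p = 0.0029). Herc6, the ligase that attaches Isg15 in mouse, averaged 2.34 ± 0.33 FPKM in SZ, 2.34 ± 0.62 in CKD and 1.62 ± 0.33 in NC (SD, n = 6 each). Its call as higher in CKD than in NC (0.34 ± 0.13, limma adjusted p = 0.036) was lost when any 1 of NC 1, NC 2, NC 4, NC 5, NC 6, CKD 3, CKD 4, CKD 5 or CKD 6 was left out, with log2 values of Herc6 between 0.26 and 0.34 and an adjusted p of up to 0.094.

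The Parp9, Parp14 and Dtx3l group was higher in both adenine-treated groups, with 3 of 3 called in CKD against NC and 3 of 3 in SZ against NC. Of all tested genes, 24.4% and 12.5% were called higher in these comparisons. Parp14 and Parp9 belong to the ADP-ribosyltransferase family, and Dtx3l is the ubiquitin ligase that forms a complex with Parp9. Parp14 (chr11:64902785-64934916, plus strand, mRatBN7.2) ran from 10.8 to 26.7 FPKM in SZ (median 18.4), from 7.86 to 20.4 FPKM in CKD (median 15.5) and from 4.55 to 6.14 FPKM in NC (median 5.19). The NC libraries lay close together and below every SZ and CKD library. Its log2 fold change was 1.22 ± 0.21 for CKD against NC (limma adjusted p = 0.00011), 1.59 ± 0.21 for SZ against NC (adjusted p = 4.3e-05) and 0.36 ± 0.21 for SZ against CKD (adjusted p = 0.26, 95% interval -0.08 to 0.80).

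Parp9 ran from 11.7 to 16.8 FPKM in SZ (median 13.4), from 10.5 to 24.9 FPKM in CKD (median 16.0) and from 4.39 to 9.35 FPKM in NC (median 5.42). All SZ and CKD libraries were above all NC libraries, with log2 fold changes of 1.34 ± 0.17 for CKD against NC (limma adjusted p = 5.1e-06) and 1.10 ± 0.17 for SZ against NC (adjusted p = 0.00019). Dtx3l averaged 4.48 ± 0.77 FPKM in SZ, 4.69 ± 1.45 in CKD and 1.86 ± 0.54 in NC (SD, n = 6 each). The spans of Parp9 and Dtx3l overlap on opposite strands, and if the counting did not use strand, reads from the shared stretch cannot be told apart.

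Of the Ifit genes, whose products bind viral RNA, Ifit2 and Ifit3 had rows. Ifit3 ran from 1.90 to 8.74 FPKM in SZ (median 3.49), from 2.86 to 5.77 FPKM in CKD (median 3.78) and from 1.54 to 3.65 FPKM in NC (median 1.95). Ranges overlapped, and SZ 3 held the highest value. It was higher in CKD than in NC by 0.63 ± 0.23 on the log2 scale (limma adjusted p = 0.029), and the call was lost without NC 1, NC 2, NC 4, NC 5, CKD 3, CKD 5 or CKD 6, with values of Ifit3 between 0.53 and 0.61. Ifit2 averaged 5.78 ± 1.08 FPKM in SZ, 4.92 ± 1.26 in CKD and 3.91 ± 0.98 in NC (SD, n = 6 each) and was higher in SZ than in NC by 0.48 ± 0.16 (limma adjusted p = 0.040). The call of Ifit2 in SZ against NC was lost without any 1 of NC 1, NC 2, NC 4, NC 5, SZ 2, SZ 3, SZ 4, SZ 5 or SZ 6, with values between 0.37 and 0.49.

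The OAS family makes the short oligoadenylates that switch on RNase L. Of its 4 tested members, Oasl was higher in CKD than in NC and in SZ than in NC, and Oas1a, Oas2 and Oasl2 did not pass in any comparison. Of all tested genes, 24.4% were called higher in CKD than in NC and 12.5% in SZ than in NC. Oasl, which lacks that enzyme activity in human, ran from 2.16 to 8.58 FPKM in SZ (median 3.34), from 1.03 to 7.50 FPKM in CKD (median 5.07) and from 0.76 to 2.81 FPKM in NC (median 1.19). CKD 1 lay within the NC range and the other CKD libraries above it, and the log2 fold change was 1.20 ± 0.32 for CKD against NC (limma adjusted p = 0.0042) and 1.13 ± 0.32 for SZ against NC (adjusted p = 0.017). Oas1a ran from 0.30 to 8.89 FPKM in SZ (median 1.97), from 0.66 to 5.09 FPKM in CKD (median 2.20) and from 0.45 to 3.07 FPKM in NC (median 1.06). The SZ range, from SZ 1 to SZ 3, covered those of both other groups, and the log2 fold change was 0.57 ± 0.39 for CKD against NC (limma adjusted p = 0.23).

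Oas2 averaged 1.46 ± 0.94 FPKM in SZ, 1.29 ± 0.91 in CKD and 0.58 ± 0.44 in NC, and Oasl2 averaged 5.46 ± 1.52 FPKM in SZ, 5.70 ± 2.17 in CKD and 4.06 ± 1.29 in NC (SD, n = 6 each). Oas2 had as few as 3 reads in a library, which limits its precision. Oas3 reached 1 FPKM in 1 library and was not tested, with medians of 0.55 FPKM in SZ, 0.56 in CKD and 0.17 in NC. The Oas genes are close copies of each other, and how the authors' counting split reads they share is not stated, so values of single Oas genes are uncertain.

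Of the MX and GBP proteins, GTPases that act on viruses and on vacuoles holding microbes, 3 of 4 were higher in CKD than in NC and 3 of 4 in SZ than in NC. The shares of all tested genes called higher were 24.4% and 12.5% in that order. Gbp2 (chr2:231332284-231348571, plus strand, mRatBN7.2), a gene that interferon gamma induces strongly, ran from 8.16 to 14.1 FPKM in SZ (median 12.4), from 8.90 to 27.8 FPKM in CKD (median 19.7) and from 2.49 to 6.06 FPKM in NC (median 3.78). Every SZ and CKD library was above every NC library. Its log2 fold change was 1.96 ± 0.23 for CKD against NC (limma adjusted p = 2.5e-06) and 1.37 ± 0.23 for SZ against NC (adjusted p = 0.00042). For SZ against CKD Gbp2 differed by -0.58 ± 0.23 (adjusted p = 0.11, 95% interval -1.07 to -0.09), and without CKD 1 by -0.77 with an adjusted p of 0.015.

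Gbp5, which takes part in inflammasome activation, averaged 3.11 ± 0.93 FPKM in SZ, 3.19 ± 1.24 in CKD and 1.25 ± 0.31 in NC (SD, n = 6 each). Its ranges were apart from NC in both adenine-treated groups, with log2 fold changes of 0.86 ± 0.17 for CKD against NC (limma adjusted p = 0.00051) and 0.86 ± 0.17 for SZ against NC (adjusted p = 0.0018). Gbp genes are also close copies of each other, with the same limit as the Oas genes. Mx1 ran from 3.24 to 12.7 FPKM in SZ (median 8.52), from 2.55 to 12.2 FPKM in CKD (median 6.32) and from 1.50 to 5.15 FPKM in NC (median 2.74). It was higher in SZ than in NC by 1.15 ± 0.31 on the log2 scale (limma adjusted p = 0.014) and in CKD than in NC by 0.81 ± 0.31 (adjusted p = 0.038), and the call of Mx1 for CKD against NC was lost without NC 1, NC 4, NC 5, NC 6, CKD 3, CKD 4, CKD 5 or CKD 6, with values between 0.62 and 0.82. Mx2 averaged 11.4 ± 6.72 FPKM in SZ, 9.36 ± 4.44 in CKD and 6.44 ± 2.73 in NC (SD, n = 6 each) and passed in no comparison.

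Among the enzymes that act on nucleotides and RNA, Samhd1, which destroys deoxynucleotides, averaged 4.88 ± 1.02 FPKM in SZ, 4.31 ± 1.41 in CKD and 2.52 ± 0.40 in NC (SD, n = 6 each). It was higher by 0.56 ± 0.16 on the log2 scale in CKD than in NC (limma adjusted p = 0.0078) and by 0.73 ± 0.16 in SZ than in NC (adjusted p = 0.0036), with all SZ libraries above all NC libraries. Rsad2 encodes viperin, which makes a chain-terminating nucleotide, and ran from 3.50 to 11.2 FPKM in SZ (median 7.35), from 1.85 to 6.96 FPKM in CKD (median 4.84) and from 2.26 to 6.96 FPKM in NC (median 3.06). The CKD and NC ranges coincided almost fully, while 4 of the 6 SZ libraries lay above both.

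Rsad2 was the member with the highest log2 fold change for SZ against CKD, 0.56 ± 0.28 (limma adjusted p = 0.19, 95% interval -0.02 to 1.14). It was higher in SZ than in NC by 0.84 ± 0.28 (adjusted p = 0.038), and that call was lost without NC 1, NC 4, NC 5, NC 6, SZ 1, SZ 2, SZ 4, SZ 5 or SZ 6, with values of Rsad2 between 0.71 and 0.87. For CKD against NC it had 0.28 ± 0.28 (adjusted p = 0.42). Cmpk2, the neighbour of Rsad2 that supplies its nucleotide, averaged 3.05 ± 0.50 FPKM in SZ, 3.21 ± 0.82 in CKD and 2.36 ± 0.70 in NC (SD, n = 6 each) and passed in no comparison.

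Isg20, an exonuclease, averaged 1.31 ± 0.55 FPKM in SZ, 1.45 ± 0.62 in CKD and 0.74 ± 0.18 in NC (SD, n = 6 each). It was higher in CKD than in NC by 0.46 ± 0.17 on the log2 scale (limma adjusted p = 0.030). The call of Isg20 was lost without NC 4, NC 6, CKD 3, CKD 4 or CKD 5, with values between 0.36 and 0.45, and its span overlaps that of Aen on the same strand.

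The remaining members act at membranes or in cell death, and 5 of 5 were higher in CKD than in NC, 1 of 5 (Xaf1) in SZ than in NC. Over all tested genes, 24.4% were called higher in CKD than in NC and 12.5% in SZ than in NC. Ifi27 encodes a small mitochondrial membrane protein and was the member with the highest FPKM. It ran from 59.6 to 274 FPKM in SZ (median 77.6), from 75.8 to 496 FPKM in CKD (median 163) and from 39.6 to 85.0 FPKM in NC (median 47.3). CKD 5 and SZ 3 held the highest values of their groups, CKD 1 lay within the NC range, and the other CKD libraries lay above all NC libraries. Its log2 fold change was 1.70 ± 0.39 for CKD against NC (limma adjusted p = 0.0013), 0.86 ± 0.39 for SZ against NC (adjusted p = 0.12) and -0.84 ± 0.39 for SZ against CKD (adjusted p = 0.16, 95% interval -1.65 to -0.03). For SZ against CKD Ifi27 was at -1.09 without CKD 1 (adjusted p = 0.046) and at -1.13 without SZ 3 (adjusted p = 0.029). The span given for Ifi27 also overlaps Ppp4r4 on the same strand.

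Ifi44 averaged 7.37 ± 3.19 FPKM in SZ, 10.7 ± 4.82 in CKD and 4.33 ± 1.14 in NC (SD, n = 6 each) and was higher by 1.06 ± 0.25 on the log2 scale in CKD than in NC (limma adjusted p = 0.0017). Bst2, the tethering protein that holds budding virus on the cell, averaged 65.5 ± 34.8 FPKM in SZ, 89.6 ± 50.9 in CKD and 43.0 ± 18.1 in NC, with CKD 5 at 192 FPKM, and had 0.99 ± 0.32 for CKD against NC (limma adjusted p = 0.015). Xaf1, a promoter of apoptosis, averaged 5.67 ± 1.16 FPKM in SZ, 6.35 ± 2.32 in CKD and 2.80 ± 1.09 in NC (SD, n = 6 each), with 0.93 ± 0.22 for CKD against NC (limma adjusted p = 0.0020) and 0.84 ± 0.22 for SZ against NC (adjusted p = 0.012). Ifi35 averaged 14.0 ± 4.10 FPKM in SZ, 17.9 ± 6.18 in CKD and 9.31 ± 1.46 in NC, and every CKD library was above every NC library.

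Within each group, the same libraries were often the highest or the lowest across members, with exceptions. In SZ, SZ 3 was the highest of the 6 libraries for 21 of the 31 members, against 33.1% of all tested genes, and SZ 1 was the lowest for 18, against 12.5%. In CKD, CKD 5 was highest for 17 (27.7% of all tested genes) and CKD 3 for 8 (9.58%), while CKD 1 was lowest for 24 (19.8%) and below its group mean for all 31. In NC, NC 3 was highest for 18 (10.8% of all tested genes) and NC 1 lowest for 17 (17.4%). SZ 3 and CKD 5 were also the lowest of their groups for 33.0% and 24.4% of all tested genes, and for 4 and 2 members. The median deviation of the 31 members from their group mean was 0.55 on the log2 scale in SZ 3, 0.51 in CKD 5, 0.40 in CKD 3, 0.33 in NC 3, -0.29 in SZ 1, -0.61 in CKD 1 and -0.31 in NC 1, where the median deviation of all tested genes was within 0.02 of 0 in every library.

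Gene lengths and length slopes are set beside this order of the libraries. The members for which SZ 3 was highest had a median length of 2373 bases, against 4830.5 bases for the other members. In CKD 5, whose slope was steeper, the members for which it was highest had a median length of 2597 bases, against 2906.5 bases for the others. CKD 2, whose values also fell with length, was highest for 0 members, and CKD 1, with a slope of -0.10, was the library lowest for 24. Samhd1, Parp14, Dtx3l and Rsad2 had their lowest SZ values in SZ 3. NC 3 had a length slope of 0.04 and CKD 3 was not among the libraries set apart by length. The part of gene length in the order of the libraries was not tested.

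**Figure D4:**
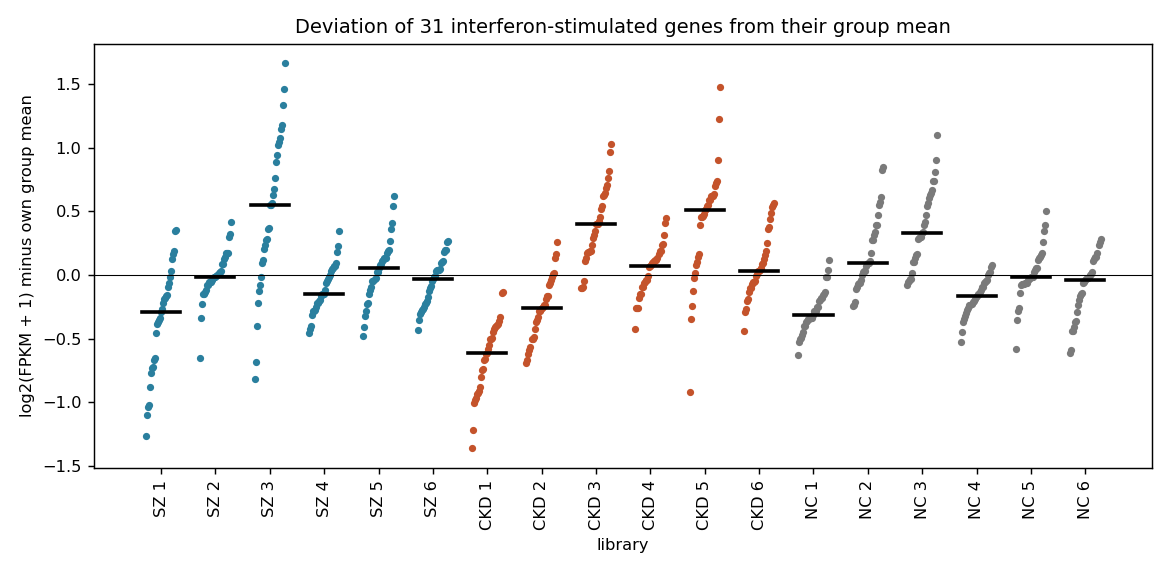
Log2(FPKM + 1) of the 31 genes (points) in each library minus the mean of the library's own group, with the median as a bar; SZ, CKD and NC run from left to right. The medians stand at 0.55 in SZ 3, 0.51 in CKD 5 and 0.33 in NC 3, and at -0.29 in SZ 1, -0.61 in CKD 1 and -0.31 in NC 1.

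Interferons themselves were near the limit of detection. Ifnb1, Ifna1, Ifna4, Ifnl1 and Ifnl3 had 0 reads in every library. Ifng had 7 reads over the 6 SZ libraries, 13 over the 6 CKD libraries and 2 over the 6 NC libraries, and was above 0 in 3, 4 and 1 of them. None of the 8 ligand genes found was expressed highly enough to test, so differences between groups were not tested.

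The receptors and their kinases were measured better. Of 8 tested, 7 were higher in CKD than in NC and 0 lower, with a median log2 fold change of 0.64, 5 were higher in SZ than in NC, and 2 were lower in SZ than in CKD. Those 2 were the chains of the interferon gamma receptor. Ifngr1 ran from 33.8 to 49.2 FPKM in SZ (median 34.9), from 42.1 to 106 FPKM in CKD (median 60.6) and from 21.1 to 29.6 FPKM in NC (median 23.6). Only SZ 3 reached into the CKD range, and the log2 fold change was -0.75 ± 0.16 for SZ against CKD (limma adjusted p = 0.011) and 1.34 ± 0.16 for CKD against NC (adjusted p = 3.4e-06). Ifngr2 averaged 10.6 ± 1.16 FPKM in SZ, 17.0 ± 3.69 in CKD and 6.16 ± 0.91 in NC (SD, n = 6 each), with -0.61 ± 0.13 for SZ against CKD (limma adjusted p = 0.0097) and 1.31 ± 0.13 for CKD against NC (adjusted p = 2.9e-07). Ifnar2, a chain of the type I receptor, was higher in CKD than in NC by 0.63 (limma adjusted p = 7.9e-06). Without CKD 1, 4 of the 8 receptor and kinase genes passed for SZ against CKD. With all libraries, 24.4% of all tested genes were higher in CKD than in NC and 12.5% higher in SZ than in NC. The share lower in SZ than in CKD was 6.82%.

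Of 14 tested nucleic acid sensors and adaptors, 6 were higher and 2 lower in CKD than in NC, 5 higher and 1 lower in SZ than in NC, and 0 higher and 2 lower in SZ than in CKD. The shares of all tested genes were, in that order, 24.4% and 26.0%, 12.5% and 8.61%, and 4.16% and 6.82%. Sting1, the adaptor of the cytoplasmic DNA sensor, ran from 2.80 to 4.81 FPKM in SZ (median 3.69), from 3.56 to 10.1 FPKM in CKD (median 6.76) and from 1.06 to 1.59 FPKM in NC (median 1.23). NC lay below both other groups, and the log2 fold change was -0.65 ± 0.16 for SZ against CKD (limma adjusted p = 0.019) and 1.72 ± 0.16 for CKD against NC (adjusted p = 1.9e-07). Unc93b1, the chaperone of endosomal Toll-like receptors, differed by -0.88 for SZ against CKD (limma adjusted p = 0.016) and by 2.06 for CKD against NC (adjusted p = 4e-07). Mavs, the mitochondrial adaptor of the RNA sensors, was lower in CKD than in NC with a log2 fold change of -0.72 (limma adjusted p = 1.2e-05), and Traf3 was the other gene lower there. In SZ against CKD the list had 0 calls when the model was fitted to these 2 groups alone. It had 1 call without SZ 4, and 3 without CKD 1 or CKD 2. Ddx58, the older symbol of the RNA sensor gene Rigi, did not pass for CKD against NC (-0.29 ± 0.21, limma adjusted p = 0.25). It ran from 10.2 to 13.5 FPKM in SZ, from 6.90 to 13.1 in CKD and from 7.69 to 27.1 in NC. The highest NC value was that of NC 5, with NC 1 next at 13.5 FPKM. Cgas was below the level for testing, with medians of 0.94 FPKM in SZ, 1.10 in CKD and 0.33 in NC.

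Genes that restrain the pathway gave 4 of 11 higher in CKD than in NC, 3 of 11 higher in SZ than in NC and 2 of 11 lower in SZ than in CKD, with 0 calls in the other direction. The shares of all tested genes called in these directions were 24.4%, 12.5% and 6.82%. Socs3, a feedback inhibitor of Jak kinases that other cytokines such as interleukin-6 induce as well, ran from 11.5 to 29.5 FPKM in SZ (median 20.5), from 28.5 to 79.4 FPKM in CKD (median 46.0) and from 0.87 to 4.04 FPKM in NC (median 1.94). Its log2 fold change was 3.96 ± 0.27 for CKD against NC (limma adjusted p = 9e-09) and -1.16 ± 0.27 for SZ against CKD (adjusted p = 0.016). The phosphatase gene Ptpn6 was the other gene lower in SZ than in CKD (-0.33, limma adjusted p = 0.047), and Ptpn2 was higher in CKD than in NC by 0.48 (adjusted p = 0.0011). The count of 2 for SZ against CKD was 1 in most fits that left out a library and 3 without CKD 1, and the count of 4 for CKD against NC was 7 without CKD 1 or CKD 2.

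Of 56 other tested interferon-induced genes, 45 were higher and 2 (Gbp1 and Trim14) lower in CKD than in NC, with a median log2 fold change of 0.89. In SZ against NC 40 were higher and 0 lower, with a median of 0.68, and in SZ against CKD 0 were higher and 6 lower (Ifitm1, Ifi30, Psmb8, Psmb10, Epsti1 and Cd69), with a median of -0.17. Among all tested genes, 24.4% were higher and 26.0% lower in CKD than in NC. The shares were 12.5% higher in SZ than in NC and 6.82% lower in SZ than in CKD. Cd69, an early activation marker of lymphocytes, averaged 1.57 ± 0.49 FPKM in SZ, 2.96 ± 0.82 in CKD and 0.29 ± 0.13 in NC (SD, n = 6 each). Psmb8 and Psmb10, subunits of the immunoproteasome, had log2 fold changes of 2.49 and 2.45 for CKD against NC (limma adjusted p = 4.8e-07 and 5.9e-07) and of -0.92 and -0.82 for SZ against CKD (adjusted p = 0.030 and 0.048). The count of 6 depended on single libraries, since it was 21 without CKD 1, 17 without SZ 3, 3 without NC 5, CKD 2 or CKD 3, 2 without SZ 5 or SZ 6, and 1 without CKD 5, SZ 1, SZ 2 or SZ 4. It was also 1 when the model was fitted to SZ and CKD alone.

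Cxcl10, the chemokine that interferon gamma induces and that draws T cells, ran from 8.60 to 56.3 FPKM in SZ (median 22.1), from 6.73 to 57.9 FPKM in CKD (median 17.4) and from 2.35 to 11.7 FPKM in NC (median 4.06). The SZ and CKD ranges coincided. Its log2 fold change was 1.78 ± 0.49 for CKD against NC (limma adjusted p = 0.0052), 2.07 ± 0.49 for SZ against NC (adjusted p = 0.0055) and 0.28 ± 0.49 for SZ against CKD (adjusted p = 0.72).

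**Figure D5:**
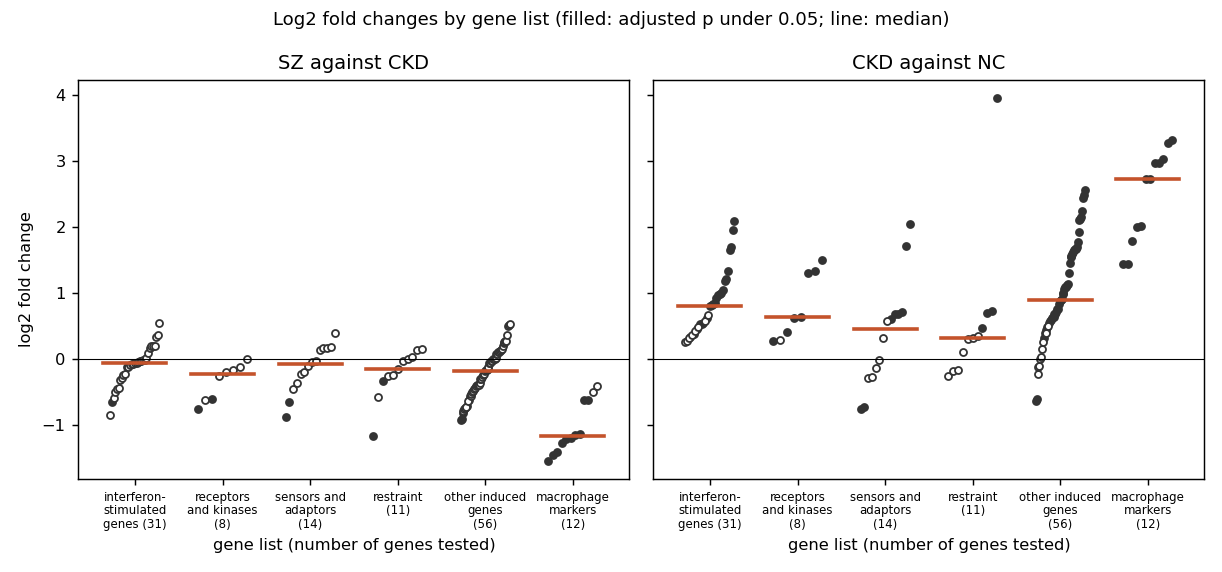
Log2 fold changes of the 31 genes and of related gene lists (points are genes, lines are medians, filled points have a limma adjusted p under 0.05) for SZ against CKD on the left and CKD against NC on the right. In SZ against CKD the median of the 31 genes is -0.06 and that of the 12 macrophage markers -1.17, and in CKD against NC they are 0.81 and 2.73.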

How the data were processed

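RNA of 18 rat kidney samples was sequenced from TruSeq libraries, per the labels' protocols. The authors deposited 1 table of FPKM values per gene. The submitters' processing notes name HISAT2 2.0.5 and the build mRatBN7.2, with the counting program, its use of strand and the annotation not given in the sources used here. Multiplied by gene length and divided by the library's smallest unit, 100% of FPKM values above 0 came out whole (tolerance 0.01), which gave reads per gene and library totals.

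Genes with at least 1 FPKM in at least 6 of 18 libraries entered a limma 3.58.1 model (R 4.3.3) of log2(FPKM + 1), fitted over all 3 groups at once with an intensity trend. P-values were 2-sided and adjusted by Benjamini and Hochberg over all 13851 genes within a comparison, with calls made where the adjusted p was under 0.05. Added to every value, the pseudocount of 1 makes differences of weakly expressed genes look smaller. All gene-level p-values are limma's. SciPy 1.17.1 gave the exact tests of library measures, over 924 splits, where 0.0022 is the smallest p possible, adjusted over the 6 tests run. Floors of 3 reads cover counting error only. The script was tested on simulated data.

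The 36 genes, their roles and the related lists were chosen with earlier results of these data known. All members are accounted for, and of each role the members with the largest differences are given in full. Of the lists, the named ligands, Cxcl10, Cgas, Sting1 and Rigi are given whatever their values, with up to 3 called genes of smallest adjusted p. Traf3, Gbp1, Trim14, Ifitm1, Ifi30 and Epsti1 were named after their values were seen. Promoters are RefSeq's, build GRCr8, and the others' coordinates are those of the deposited table. Alternatives were other pseudocounts, filters, scalings, models and weights, a length correction, a block by replicate number, voom on recovered reads, and leaving out libraries.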

Additional observations from a re-analysis of the deposited data

Results flagged for a closer look

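In 7 of 93 groups of 6 libraries (31 genes in 3 groups), 1 library stood apart from the other libraries of its group by Dixon's ratio on log2(FPKM + 1), where chance flags about 1 in 20 groups, or 4.65. SZ 3 was high for Ifi44 (13.7 FPKM), Stat2 (12.4 FPKM) and Gbp5 (4.91 FPKM). NC 3 was high for Oasl (2.81 FPKM) and Usp18 (3.43 FPKM). CKD 5 was high for Bst2 (192 FPKM), and SZ 1 was low for Herc6 (1.73 FPKM).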

How the results depend on the processing

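In the 31 alternatives, no called gene reversed. The count of members called was 1 in SZ against CKD, and it was 3 with array weights and between 1 and 4 when 1 library was left out. In CKD against NC it was 23, and 12 of the 16 members left with a mean of at least 5 FPKM, where fewer genes were tested. It was between 19 and 25 when 1 library was left out. In SZ against NC it was 15, and 8 with that stricter filter, 23 under TPM, and between 13 and 18 when 1 library was left out; the cause of the TPM value was not tested, and the median of all genes was 0.22 there. Of the members called, 19 of 23 in CKD against NC, 13 of 15 in SZ against NC and 1 of 1 in SZ against CKD were called in every alternative that tested them. With voom on recovered reads, the counts were 1 in SZ against CKD, 22 in CKD against NC and 15 in SZ against NC. Over all genes, 4 of 18 same-numbered pairs of libraries correlated above 0.1, from -0.36 to 0.23, and 1 library matched its own number best. Over the 31 members alone, 10 of 18 pairs were above 0.1. Correlations over all genes cannot show whether the members share a factor by number. With the replicate block the counts were 1 in SZ against CKD, 28 in CKD against NC and 21 in SZ against NC. The shares of all tested genes called with the block were 8.63%, 47.9% and 18.7%, against 11.0%, 50.3% and 21.1% without it. Precision is limited by depth for Oas2, Isg20 and Oas1a, which had as few as 3, 19 and 13 reads in a library.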

Other observations

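Among the 31 members alone, 10 of the 18 same-numbered pairs of libraries in different groups had deviations from the group means that correlated above 0.1, with a median of 0.21 and a range from -0.66 to 0.71. This is a description chosen after the values were seen, over 31 genes of which many were highest or lowest in the same library.

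A row named Oas1k, whose description in the table names Oas1b, had medians of 1.80 FPKM in SZ, 1.19 in CKD and 0.82 in NC, with a log2 fold change of 0.43 ± 0.25 for CKD against NC (limma adjusted p = 0.16). A row without a symbol, described by likeness to mouse Ifit1, had medians of 0.47 FPKM in SZ, 1.04 in CKD and 0.56 in NC, with 0.55 ± 0.35 for CKD against NC (limma adjusted p = 0.20). Ifit1bl averaged 1.11 ± 0.25 FPKM in SZ, 1.62 ± 0.66 in CKD and 0.71 ± 0.16 in NC (SD, n = 6 each) and was higher in CKD than in NC by 0.59 ± 0.14 on the log2 scale (limma adjusted p = 0.0015). These rows are not among the 36 genes by symbol.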
